A study of Mus musculus with 9 samples.

Results

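Dkk2, a secreted inhibitor of WNT signalling, was described together with 7 further genes of the same pathway in mouse bladder: Dkk3, Sfrp1, Sfrp2, Wif1, Wnt5a, Axin2 and Lef1. The 8 genes were taken by symbol from the annotation of the array, out of 17097 genes with a probe set of their own, and each was read from its probe set with the highest mean over the 9 arrays. The list was chosen by measured values as far as Dkk2 goes: it had been picked for its rise with the instilled compound in tumour and in healthy bladder. Its values are therefore given as a description, with no test. Of the 8 genes, 6 lay above the filter on dim probe sets (a mean log2 intensity of 4.16, below which 30% of genes fell), and 2, Wif1 and Lef1, lay below it and are given as values. Leaving Dkk2 aside, 5 genes were tested.

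The study measured whole bladders of female C57BL/6J mice on Affymetrix expression arrays. Tumours came from MB49 cells, a mouse bladder carcinoma line placed into the bladder after a coat of poly-L-lysine, and alpha1-oleate, a complex of an alpha-lactalbumin peptide with oleate, was then given into the bladder. In experiment 1, single arrays held tumour bladder given 17 mM, 8.5 mM or 1.7 mM of it on 5 occasions between days 3 and 11 and taken on day 12, beside 1 sham-treated tumour bladder given PBS and 1 healthy bladder. In experiment 2, single arrays held bladders labelled healthy that were taken 24 h or 7 days after 17 mM, beside 1 PBS tumour and 1 healthy bladder. The labels call the healthy controls PBS-treated and give no time for them.

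Sham-treated tumour and healthy bladder thus had 2 arrays each, 1 in each experiment, and every other group had 1. The labels do not say whether an array was 1 animal or a pool, nor whether the arrays came from separate animals. The spread behind the p-values below comes from the PBS arrays alone and may be technical. With the experiment fitted as a block, it is how far sham-treated tumour minus healthy bladder differed between the 2 experiments. Empirical Bayes then moderates it by the spread of all tested genes. The values are log2 intensities normalized separately in the 2 experiments, with array medians of 4.42 to 4.45 in experiment 1 and 4.20 to 4.24 in experiment 2. Differences were therefore taken within an experiment.

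WNT proteins are secreted signals that bind Frizzled receptors with LRP5 or LRP6 as coreceptors, which stabilizes beta-catenin and lets it act with TCF and LEF factors on target genes. DKK2 binds the LRP coreceptors, whereas SFRP proteins and WIF1 bind the WNT proteins themselves. In bladder, WNT and other signals pass between the urothelium and the stroma beneath it during growth and repair.

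The promoters of 3 of the genes are shown because their arrays followed different courses: Dkk2 and Sfrp2 were both higher in the treated tumours, and Axin2, a standard beta-catenin target, stayed within a narrow range. They are RefSeq promoters of build GRCm38.p6, from 250 bases before to 50 bases after the start of the gene, and 5 of the 8 genes matched that table (Dkk2, Sfrp2, Axin2, Lef1 and Wif1, while Dkk3, Sfrp1 and Wnt5a are named only). All 3 are printed in the direction of the gene, on the + strand: Dkk2 at chr3:132085042-132085341, Sfrp2 at chr3:83766071-83766370 and Axin2 at chr11:108920099-108920398. Capitals mark CTTTGA or CTTTGT, the cores of TCF/LEF sites, and TATAAA, the core of a TATA box, each searched on both strands.
Dkk2: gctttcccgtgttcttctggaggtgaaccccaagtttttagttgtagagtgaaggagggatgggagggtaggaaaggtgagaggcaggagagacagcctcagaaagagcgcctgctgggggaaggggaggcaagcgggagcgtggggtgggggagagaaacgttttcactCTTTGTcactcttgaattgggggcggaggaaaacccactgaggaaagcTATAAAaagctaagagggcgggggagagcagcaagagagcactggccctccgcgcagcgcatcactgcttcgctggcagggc
Sfrp2: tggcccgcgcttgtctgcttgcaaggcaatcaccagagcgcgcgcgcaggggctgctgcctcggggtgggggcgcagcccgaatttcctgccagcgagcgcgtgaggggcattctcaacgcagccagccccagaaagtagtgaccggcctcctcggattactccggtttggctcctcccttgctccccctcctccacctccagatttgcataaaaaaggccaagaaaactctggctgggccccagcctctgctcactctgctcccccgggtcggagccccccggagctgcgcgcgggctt
Axin2: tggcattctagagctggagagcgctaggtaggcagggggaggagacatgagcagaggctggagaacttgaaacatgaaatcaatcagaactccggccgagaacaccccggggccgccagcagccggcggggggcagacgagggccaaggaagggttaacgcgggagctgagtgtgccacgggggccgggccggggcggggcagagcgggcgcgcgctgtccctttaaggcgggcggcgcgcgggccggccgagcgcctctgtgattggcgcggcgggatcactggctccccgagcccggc
The Dkk2 promoter held 1 CTTTGT, beginning 80 bases before the start, and 1 TATAAA, beginning 32 bases before it, both on the strand of the gene. Among all 32851 promoters of that table, CTTTGT was present on either strand in 18.7%, CTTTGA in 16.0% and TATAAA in 13.6%. None of these letters stood in the Sfrp2 or Axin2 windows. The windows also differed in composition, with 11 CG pairs and 57.7% G or C in Dkk2, 22 and 66.0% in Sfrp2, and 31 and 70.0% in Axin2, against medians of 7 and 52.7% over all promoters. A match of letters is a description and shows neither a bound site nor a cause.

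The arrays were first compared with their labels through marker genes. Mki67 and Top2a, which are expressed in dividing cells, and Upk2, a uroplakin of the urothelium, separated sham-treated tumour from healthy bladder in both experiments. The array labelled healthy, 24 h went partly against its label. In sham-treated tumour, 650 genes were called at least 4-fold higher than in healthy bladder over both experiments. Of these, 394 (60.6%) were at least 2-fold above healthy PBS of experiment 2 on the 24 h array, and 25 (3.85%) on the 7-day array. Mki67 read 6.83 on the 24 h array against 3.41 in healthy PBS and 4.19 at 7 days. Alb, the albumin gene of liver, read 8.80 on it and 10.15 at 17 mM in tumour, against 3.85 and 4.57 on the healthy PBS arrays and 3.52 at 7 days. Upk2 went the other way, with 10.36 on the 24 h array, 10.86 in healthy PBS and 7.43 in sham-treated tumour of experiment 2. The 669 genes called at least 4-fold lower in sham-treated tumour had a median of -0.55 against healthy PBS on the 24 h array. Their median on the tumour PBS array of experiment 2 was -2.69. Each result from the 24 h array is therefore given beside the 7-day array, and the reason for its values was not tested. As the only array of its group it has no weight in the comparisons that do not name it.

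Dkk2 was low in every bladder given PBS and higher wherever 8.5 mM or 17 mM of the compound had been given. In experiment 1 its log2 intensity was 4.59 in healthy bladder, 4.88 in sham-treated tumour, 5.37 at 1.7 mM, 7.00 at 8.5 mM and 7.54 at 17 mM. In experiment 2 it was 3.62 in healthy bladder, 3.70 in sham-treated tumour, 6.80 on the array labelled healthy, 24 h and 6.40 at 7 days. The 4 arrays at 8.5 mM or 17 mM, tumour and labelled healthy alike, lay above all 4 PBS arrays, and the 1.7 mM array lay between them.

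The tumour itself made little difference to Dkk2: the sham-treated tumour read 0.29 log2 units above healthy bladder in experiment 1 and 0.08 above it in experiment 2, where both values lay under the filter value of 4.16. Against sham-treated tumour, Dkk2 was 1.40-fold higher at 1.7 mM, 4.35-fold higher at 8.5 mM and 6.32-fold higher at 17 mM. Against the healthy bladder of experiment 1 the 8.5 mM and 17 mM tumours were 5.31-fold and 7.73-fold higher. The array labelled healthy, 24 h read 3.18 log2 units and the 7-day array 2.78 above healthy PBS. As the 3.62 of that healthy PBS array also lay under its array's median, Dkk2 is not shown to be above background there, and a fold against it would rest on a level that was not established. Against the filter value instead, the 24 h array was 6.23-fold and the 7-day array 4.72-fold higher. None of these ratios has a replicate.

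Within experiment 1 the order from low to high was healthy bladder, sham-treated tumour, 1.7 mM, 8.5 mM and 17 mM, with steps of 0.29, 0.49, 1.63 and 0.54 log2 units. Within experiment 2 it was healthy bladder, sham-treated tumour, 7 days and 24 h, with steps of 0.08, 2.70 and 0.40. The widest step of each experiment thus lay below the arrays at 8.5 mM or 17 mM. The sole difference measured in both experiments, sham-treated tumour minus healthy bladder, varied by 0.21 between them, and no other step has a measured spread. Taken each against the healthy bladder of its own experiment, the 4 high arrays stood at 2.41 (8.5 mM), 2.78 (7 days), 2.95 (17 mM) and 3.18 (24 h). Neighbours in this order were 0.17 to 0.37 apart, and none of these steps has a measured spread, so no order among them is read.

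**Figure D1:**
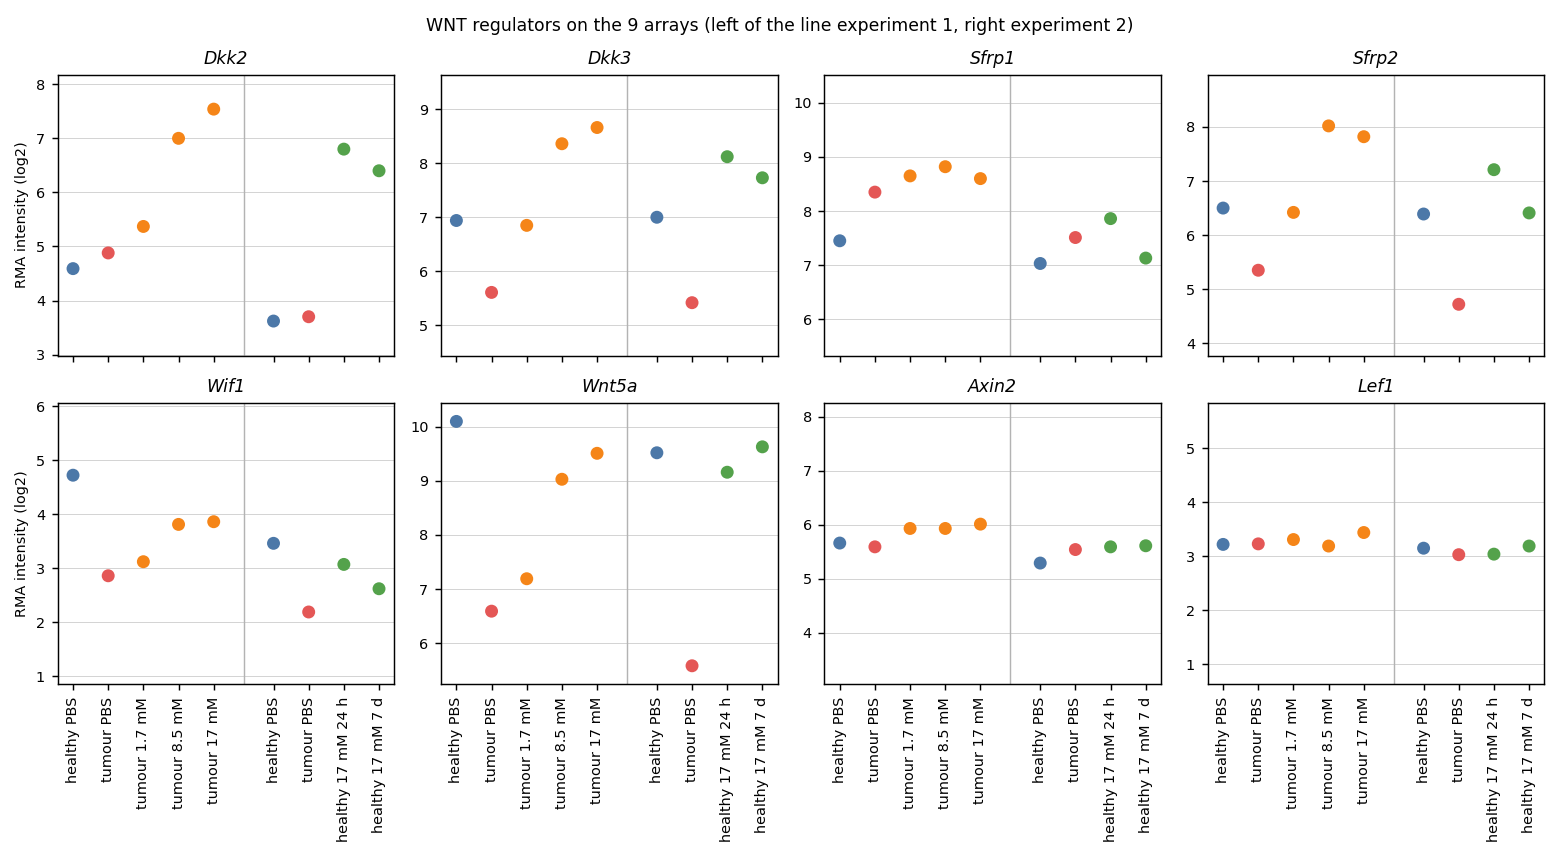
Log2 intensity (vertical axis) of the 8 genes on each of the 9 arrays, with experiment 1 left and experiment 2 right of the grey line. Blue points are healthy PBS, red sham-treated tumour, orange treated tumour and green treated bladder labelled healthy. Every panel spans the same number of log2 units. Dkk2 lies between 6.40 and 7.54 on the 4 arrays at 8.5 mM or 17 mM and between 3.62 and 4.88 on the 4 PBS arrays, whereas Axin2 and Lef1 are nearly level.

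Dkk2 took different places among the 11969 genes above the filter. Ranked by the difference on single arrays, it was number 222 from the top at 17 mM against sham-treated tumour, number 335 at 8.5 mM and number 1052 at 1.7 mM. Against healthy PBS it was number 25 on the array labelled healthy, 24 h and number 3 at 7 days. These ranks describe the differences that the gene was chosen for, and those of experiment 2 are taken from a healthy PBS level under the filter value. A further count was made after the values were seen, of genes at least 1 log2 unit (2-fold) above both PBS arrays of the same experiment. On the 8.5 mM, 17 mM, 24 h and 7-day arrays together 11 genes met it, 0.0919% of those above the filter. They were Bmp5, Calcrl, Chodl, Col11a1, Col1a1, Cpxm1, Ctsk, Cxcl14, Dkk2, Mmp2 and Tnc. Dkk2 was chosen for such a rise, so its place among them follows from that choice. Col11a1 lay under the filter value on every PBS array.

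**Figure D2:**
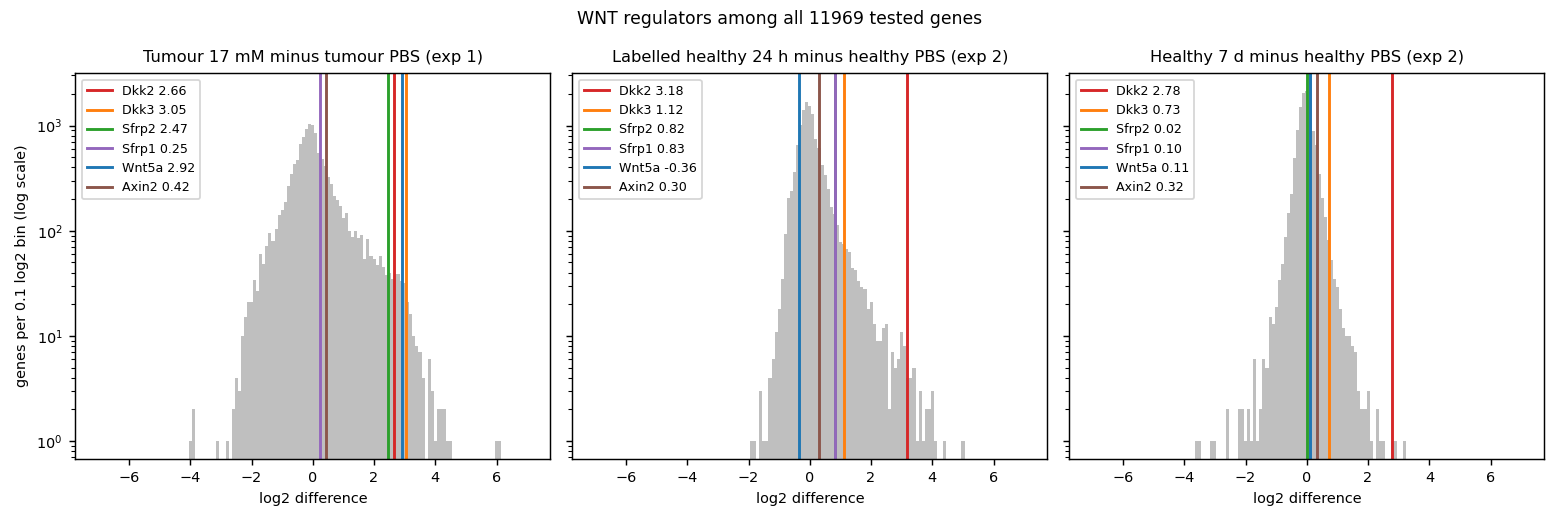
Histograms of the log2 difference (horizontal axis) of all 11969 genes above the filter, with the number of genes per bin on a log scale, for 17 mM tumour against sham-treated tumour, the array labelled healthy, 24 h against healthy PBS, and 7 days against healthy PBS. Coloured lines mark the 6 WNT regulators above the filter. Dkk2 lies at 2.66, 3.18 and 2.78 in the 3 panels, while Wnt5a and Sfrp2 lie far right only in the first.

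Dkk3, the other Dickkopf gene of the list, was also high on treated arrays of both kinds. It encodes a secreted glycoprotein that belongs to the family by sequence, although its effect on WNT signalling is not uniform. Its log2 intensity in experiment 1 was 6.94 in healthy bladder, 5.61 in sham-treated tumour, 6.85 at 1.7 mM, 8.36 at 8.5 mM and 8.66 at 17 mM. In experiment 2 it was 7.00 in healthy bladder, 5.42 in sham-treated tumour, 8.12 on the array labelled healthy, 24 h and 7.73 at 7 days. On the probe set tested, both sham-treated tumours lay below every other array. The 4 arrays at 8.5 mM or 17 mM lay above every other array on it.

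Against healthy bladder, Dkk3 in sham-treated tumour fell by 1.46 log2 units (SE 0.11, limma with Benjamini-Hochberg adjustment, adjusted p = 0.00418). That fall was no longer called without healthy PBS of experiment 2, in a fit that then cannot hold the block (limma, adjusted p = 0.0616). Against sham-treated tumour it rose by 2.81 at 8.5 mM (SE 0.15, limma, adjusted p = 0.0253) and by 3.11 at 17 mM (SE 0.15, limma, adjusted p = 0.0159), which is 8.63-fold. At 1.7 mM the difference was 1.30 (limma, adjusted p = 0.251). All comparisons with sham-treated tumour share the same 2 arrays, so these values are not independent of each other.

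Against healthy bladder, a comparison added after the values were seen, the 17 mM tumour had 1.66 log2 units more Dkk3 (SE 0.15, limma, adjusted p = 0.0459). It was the only 1 of the 5 tested genes called in that comparison, where 2.97% of all genes were called and 2.61% were higher. That call was lost in 3 of 12 tested alternatives: with no filter on dim genes (limma, adjusted p = 0.0565), and, in fits without the block, without healthy PBS of experiment 1 or of experiment 2 (limma, adjusted p = 0.163 and 0.248). On the array labelled healthy, 24 h the difference was 1.18 (limma, adjusted p = 0.109, and 0.0348 with all 9 arrays quantile-normalized together), and at 7 days it was 0.79 (limma, adjusted p = 0.499). Neither passed in the fit as designed. A second Dkk3 probe set, not used in the tests, read 5.88 and 5.20 in the sham-treated tumours, 8.25 and 8.28 at 8.5 mM and 17 mM, and 7.28 and 7.34 on the 24 h and 7-day arrays against 6.88 in their healthy PBS array. It had the same order of sham-treated tumour, healthy and high-dose tumour, with smaller distances at 24 h and 7 days. Its healthy PBS reading in experiment 1 was 7.40, so on it the 24 h and 7-day arrays did not lie above every PBS array.

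Sfrp2 followed Dkk3 in the tumours. At 7 days it read nearer its healthy control than Dkk3 did, and neither gene was called there. SFRP2 is a Frizzled-related protein of fibroblasts that binds WNT proteins outside the cell. Its log2 intensity in experiment 1 was 6.50 in healthy bladder, 5.35 in sham-treated tumour, 6.42 at 1.7 mM, 8.02 at 8.5 mM and 7.82 at 17 mM. In experiment 2 it was 6.39 in healthy bladder, 4.72 in sham-treated tumour, 7.21 on the array labelled healthy, 24 h and 6.41 at 7 days. The sham-treated tumours were the lowest and the 8.5 mM and 17 mM tumours the highest, and the 7-day array was within 0.02 of its healthy control.

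Sfrp2 fell by 1.41 in sham-treated tumour (SE 0.17, limma with Benjamini-Hochberg adjustment, adjusted p = 0.00897), then rose by 2.80 at 8.5 mM (SE 0.22, limma, adjusted p = 0.0254) and by 2.60 at 17 mM (SE 0.22, limma, adjusted p = 0.018). At 1.7 mM it stood 1.20 above sham-treated tumour (limma, adjusted p = 0.272). The difference was 0.95 on the array labelled healthy, 24 h (limma, adjusted p = 0.182) and 0.15 at 7 days (limma, adjusted p = 0.835). The 17 mM tumour stood 1.19 above healthy bladder (limma, adjusted p = 0.0841). In fits without the block, the fall in sham-treated tumour was lost without healthy PBS of experiment 1, healthy PBS of experiment 2 or tumour PBS of experiment 2 (limma, adjusted p = 0.0798, 0.0527 and 0.112).

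Sfrp1, the other Frizzled-related inhibitor, was higher in sham-treated tumour than in healthy bladder and showed little further change. It read 7.45 in healthy bladder, 8.35 in sham-treated tumour, 8.65 at 1.7 mM, 8.82 at 8.5 mM and 8.60 at 17 mM in experiment 1. In experiment 2 it read 7.03 in healthy bladder, 7.51 in sham-treated tumour, 7.86 on the array labelled healthy, 24 h and 7.13 at 7 days. All 4 tumour arrays of experiment 1 lay above its healthy bladder. The rise in sham-treated tumour was 0.69 (SE 0.15, limma with Benjamini-Hochberg adjustment, adjusted p = 0.0302), a call lost when the experiment was left out of the fit as a block (limma, adjusted p = 0.285). Against sham-treated tumour the differences were 0.40, 0.57 and 0.36 at 1.7, 8.5 and 17 mM (limma, adjusted p = 0.486, 0.143 and 0.256).

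Wif1, which binds WNT proteins, lay below the filter. It read 4.72 and 3.46 in the 2 healthy PBS bladders, 2.86 and 2.19 in the sham-treated tumours, 3.12, 3.81 and 3.86 at the 3 rising doses, 3.07 on the array labelled healthy, 24 h and 2.62 at 7 days. On 8 of the 9 arrays these readings lay under the filter value, so no difference between them is given.

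Wnt5a is a ligand that signals mainly without beta-catenin, and it had the widest swing between healthy bladder and tumour of the 5 tested genes. Its log2 intensity in experiment 1 was 10.10 in healthy bladder, 6.59 in sham-treated tumour, 7.19 at 1.7 mM, 9.03 at 8.5 mM and 9.51 at 17 mM. In experiment 2 it was 9.52 in healthy bladder, 5.58 in sham-treated tumour, 9.16 on the array labelled healthy, 24 h and 9.63 at 7 days. The sham-treated and 1.7 mM tumours lay more than 1 log2 unit below every other array. The 8.5 mM and 17 mM tumours lay between sham-treated tumour and the healthy bladder of their experiment.

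Wnt5a fell by 3.72 log2 units in sham-treated tumour (13.18-fold, SE 0.15, limma with Benjamini-Hochberg adjustment, adjusted p = 0.0024). It rose by 2.55 at 8.5 mM (SE 0.20, limma, adjusted p = 0.0253) and by 3.03 at 17 mM (SE 0.20, limma, adjusted p = 0.0159). At 1.7 mM it was 0.71 above sham-treated tumour (limma, adjusted p = 0.338). Against healthy bladder the 17 mM tumour stood at -0.70 (limma, adjusted p = 0.133), the array labelled healthy, 24 h at -0.25 (limma, adjusted p = 0.508) and the 7-day array at 0.22 (limma, adjusted p = 0.738). On the probe set tested, Wnt5a in the treated tumours stayed below its healthy level at every dose, where Dkk2 stood above it. A second Wnt5a probe set read 8.61 and 7.68 in healthy PBS bladder, 4.78 and 4.40 in sham-treated tumour, 5.45, 7.61 and 8.01 at the 3 doses, and 7.52 and 8.71 on the 24 h and 7-day arrays. On it the 7-day array alone stood above its healthy control.

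Axin2, a scaffold of the beta-catenin destruction complex and itself induced by beta-catenin, stayed within a narrow range. It read 5.66 in healthy bladder, 5.59 in sham-treated tumour, 5.93 at 1.7 mM, 5.93 at 8.5 mM and 6.01 at 17 mM in experiment 1. In experiment 2 it read 5.29, 5.54, 5.59 and 5.61 in healthy PBS, sham-treated tumour, the array labelled healthy, 24 h and the 7-day array. The treated array was above its healthy control in all 5 cases, and no difference passed the test. The difference at 17 mM against sham-treated tumour was 0.34 (SE 0.16, limma with Benjamini-Hochberg adjustment, adjusted p = 0.217). A second Axin2 probe set read 2.85 to 3.08 on all 9 arrays.

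Lef1, the factor that carries beta-catenin to DNA in many cell types, lay below the filter and read 3.03 to 3.44 over the 9 arrays. Its highest value, 3.44, was at 17 mM in tumour. No group stood apart from the others.

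Counted together, 4 of the 5 tested genes passed the test between sham-treated tumour and healthy bladder, 3 lower and 1 higher, where 57.2% of all genes above the filter were called, 28.6% lower and 28.6% higher. At 17 mM against sham-treated tumour 3 of 5 rose (Dkk3, Sfrp2 and Wnt5a) where 26.3% of all genes were called, 15.7% higher and 10.6% lower. At 8.5 mM the same 3 of 5 rose where 15.6% were called, 11.0% higher and 4.65% lower. The median difference of the 5 genes was -1.41, 2.60 and 2.55 in these comparisons, against 0.00, -0.04 and -0.04 over all genes. At 1.7 mM none of the 5 passed in limma with Benjamini-Hochberg adjustment, and neither did any other gene (0.00% called, 1595 at an unadjusted p below 0.05).

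In the bladders labelled healthy, too, none of the 5 genes passed in limma with Benjamini-Hochberg adjustment at 24 h or at 7 days, where 0.00% of all genes were called. At an unadjusted p below 0.05 there were 2503 genes at 24 h and 1096 at 7 days. Without the experiment as a block limma called 36 genes at 1.7 mM, 126 at 24 h and 15 at 7 days, and none of the 5 was among them. The median difference of the 5 genes was 0.71 at 1.7 mM, 0.94 at 24 h and 0.22 at 7 days. A further cut was at least 1 log2 unit above both PBS arrays of the same experiment. Of the 5 genes, Dkk3 and Sfrp2 met it at 8.5 mM (1.19% of all genes did) and at 17 mM (1.48%). Dkk3 alone met it on the array labelled healthy, 24 h (0.551%), and none of the 5 at 7 days (0.226%). At 1.7 mM none of the 8 did (0.409%). Dkk2 met it on every array at 8.5 mM or 17 mM, but it was chosen for that rise and is not counted.

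Whether 17 mM went with unequal differences in tumour and in bladder labelled healthy was tested as an interaction, with the caution that the tumours had 5 instillations and another interval. Against the 24 h array, the difference was larger in tumour by 3.28 for Wnt5a (SE 0.30, limma with Benjamini-Hochberg adjustment, adjusted p = 0.0264) and by 1.93 for Dkk3 (SE 0.22, limma, adjusted p = 0.031). These were 2 of the 5 tested genes where 19.1% of all genes were called and 10.6% had the larger difference in tumour, and the Dkk3 call was lost without the block (limma, adjusted p = 0.0791). For Sfrp2 it was larger by 1.65 (limma, adjusted p = 0.0596). Against the 7-day array, 1 of 5 was called where 3.20% of all genes were and 2.76% had the larger difference in tumour: Dkk3, by 2.32 (SE 0.22, limma, adjusted p = 0.04999), at the very edge of the threshold. Wnt5a stood at 2.81 and Sfrp2 at 2.45 there (limma, adjusted p = 0.0505 and 0.0579). Over 11 tested alternatives Dkk3 was called there in 6, and Wnt5a and Sfrp2 in 9 each, so the difference is not particular to Dkk3. The sham-treated tumours, lower than healthy bladder in these 3 genes, are the baseline of the tumour side.

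Markers of several cell types moved along with these genes, and in bulk tissue fewer cells of a type cannot be told apart from less RNA per cell. At 17 mM against sham-treated tumour, 6 of 7 tested fibroblast markers, 7 of 7 smooth muscle, 8 of 8 urothelium, 4 of 4 liver and 2 of 6 endothelium markers rose, and 5 of 5 proliferation and 3 of 8 leukocyte markers fell (limma, Benjamini-Hochberg), where 15.7% of all genes rose and 10.6% fell. The median difference was highest for the liver markers, at 3.90, against 2.66 for smooth muscle, 2.91 for urothelium and 1.88 for fibroblasts. Between sham-treated tumour and healthy bladder, 7 of 7 smooth muscle, 8 of 8 urothelium, 3 of 7 fibroblast and 1 of 4 liver markers fell and 7 of 8 leukocyte and 5 of 5 proliferation markers rose, where 28.6% of all genes moved each way. Lum, a proteoglycan of fibroblasts, rose by 2.78 at 17 mM (SE 0.31, limma, adjusted p = 0.0217), and Pgm5, a muscle protein, rose by 3.48 (SE 0.22, limma, adjusted p = 0.0159). Their part in the values of Dkk3, Sfrp2 and Wnt5a was not tested.

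Against healthy bladder the marker lists stood on both sides of Dkk2. The median fibroblast marker stood 1.02 and 1.08 log2 units above healthy PBS at 8.5 mM and 17 mM in tumour, 0.55 on the array labelled healthy, 24 h and 0.40 at 7 days, where Dkk2 stood at 2.41, 2.95, 3.18 and 2.78. Single fibroblast markers reached further: Col1a1, a fibrillar collagen and the highest of the 8 on each of these arrays, stood at 2.07, 2.18, 2.30 and 2.85, the last above Dkk2. The median proliferation marker stood above Dkk2 at 4.77 (8.5 mM), 4.33 (17 mM) and 3.42 (24 h), and the median leukocyte marker at 2.81 at 8.5 mM. The median liver marker stood below Dkk2, at 1.07 (8.5 mM), 2.06 (17 mM) and 1.61 (24 h). On the same 3 arrays Alb, the highest liver marker, stood at 4.26, 5.58 and 4.95, and Ttr, the lowest, at -1.35, -0.75 and -0.49. The summed signal of the 8 fibroblast markers ranged from 12.11 to 14.26 on the log2 scale over the 9 arrays and was 0.67 above healthy PBS at 7 days. None of the 7 tested fibroblast markers was called at 7 days, where 0.00% of all genes were called, so this does not set them apart. At 7 days the median smooth muscle, urothelium, endothelium, proliferation and leukocyte markers stood at -0.29, 0.01, 0.54, 0.46 and 0.54, and kidney markers, high in healthy PBS bladder, at -2.10. The median liver marker stood at -0.22 there, and of the 5 proliferation markers Mki67 stood highest, at 0.78. On the array labelled healthy, 24 h, the median leukocyte marker stood at 2.22 and the median liver marker at 1.61. The part of any of these markers in the Dkk2 values was not tested.

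**Figure D3:**
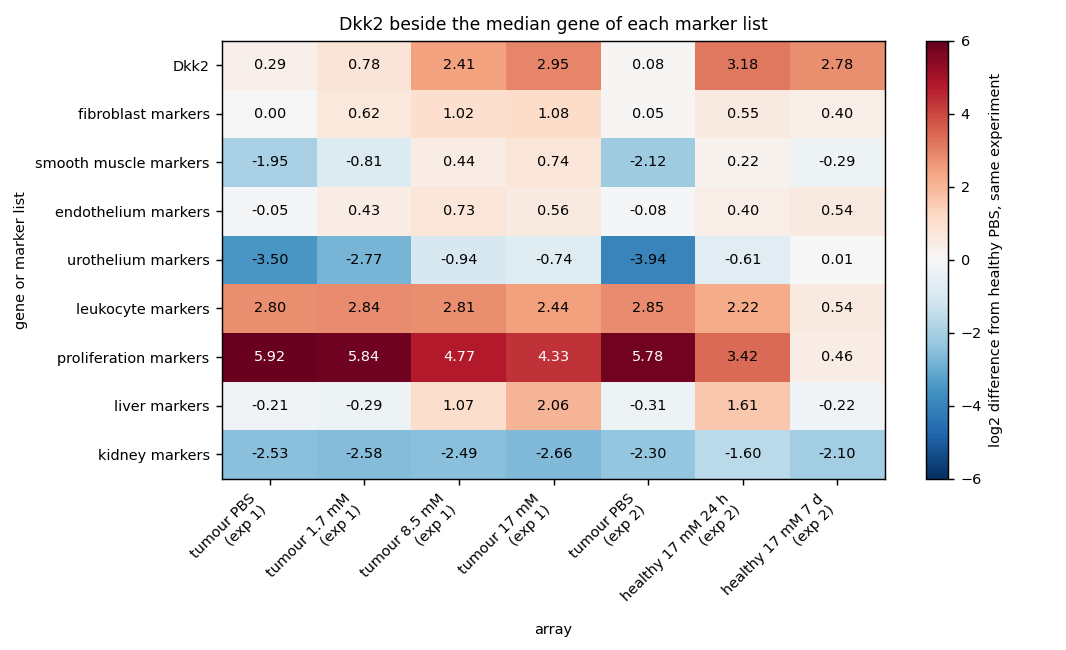
Log2 difference from the healthy PBS array of the same experiment (colour and printed number) of Dkk2 and of the median gene of each marker list (vertical axis), on each of the other 7 arrays (horizontal axis). Dkk2 stands at 2.41 to 3.18 on the 4 arrays at 8.5 mM or 17 mM. The fibroblast median is at most 1.08, and proliferation markers stand at 3.42 to 5.92 on the tumour arrays and the array labelled healthy, 24 h and at 0.46 at 7 days.

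The genes whose differences from healthy PBS ran most like those of Dkk2 over the 9 arrays, by Pearson correlation, were Col11a1 (r = 0.968), Col3a1 (0.956), Ctsk (0.956), Mmp2 (0.951) and Cxcl14 (0.948). Col11a1 and Col3a1 encode fibrillar collagens, Ctsk a collagen-degrading protease, Mmp2 a matrix metalloprotease and Cxcl14 a chemokine. Col11a1, the nearest, stood 1.83 and 2.22 log2 units above healthy PBS at 8.5 mM and 17 mM. It stood at 1.68 on the array labelled healthy, 24 h, at 1.62 at 7 days, and at 0.20 and -0.01 in the sham-treated tumours. It read 3.85 and 3.91 on the healthy PBS arrays, under the filter value, as in the sham-treated tumours and at 1.7 mM. Col11a1 is thus not shown to be above background there, and its differences and correlation rest on a level that was not established. Of the WNT regulators, Dkk3 was number 84 in this order (r = 0.83), Axin2 number 179 (0.77), Sfrp2 number 253 (0.73), Wnt5a number 1337 (0.45) and Sfrp1 number 1623 (0.41). Lum had r = 0.75, Myh11, the myosin of smooth muscle, 0.61 and Alb 0.76. The 9 points share arrays, and the 2 healthy PBS arrays are 0 by construction, so these values describe likeness on these arrays only.

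Dkk2 lies on chromosome 3, and the genes beside it did not move with it. Of the 3 nearest genes on each side, Gimd1 was not analysed here and Cyp2u1 lay below the filter. At 17 mM against sham-treated tumour the differences were -0.53 for Papss1 and -1.59 for Sgms2 on one side and -0.61 for Aimp1 and -0.36 for Tbck on the other, against 2.66 for Dkk2. At 7 days against healthy PBS they were -0.27, -0.59, -0.04 and -0.07, against 2.78. None of the 4 measured neighbours above the filter was higher in either of these differences.

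The rest of the pathway was read from 6 lists by role, with 83 genes on the array. Of the WNT receptors and coreceptors, 13 of 16 tested genes fell and 1 rose in sham-treated tumour against healthy bladder, where 28.6% of all genes moved each way. Against sham-treated tumour 10 of 16 rose and none fell at 17 mM and at 8.5 mM, where 15.7% and 11.0% of all genes rose. Their median differences were -1.17, 0.95 and 0.93. Fzd2, a Frizzled receptor, read 8.17 and 7.71 in healthy bladder, 6.10 and 5.83 in sham-treated tumour, 6.12, 7.74 and 8.11 at the 3 doses, and 7.62 and 7.06 on the 24 h and 7-day arrays. It fell by 1.98 in sham-treated tumour and rose by 1.96 at 17 mM (SE 0.10 and 0.13, limma, adjusted p = 0.00269 and 0.0159).

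Ror1, a receptor for Wnt5a, read 6.68 and 6.27 in healthy bladder, 4.90 and 4.11 in sham-treated tumour, 5.87, 6.97 and 7.54 at the 3 doses, and 6.77 and 5.53 on the 24 h and 7-day arrays. It rose by 2.74 at 17 mM (SE 0.18, limma, adjusted p = 0.0159). Lrp5, a coreceptor and a partner of DKK2, was the receptor called higher in sham-treated tumour, rising by 2.32 (SE 0.34, limma, adjusted p = 0.0135). Lrp6, the other such coreceptor, was not called there, with readings of 5.18 and 4.17 in healthy bladder and 5.74 and 6.04 in sham-treated tumour. Fzd7 rose by 1.70 at 17 mM (SE 0.14, limma, adjusted p = 0.0172) and Fzd3 fell by 2.31 in sham-treated tumour (SE 0.11, limma, adjusted p = 0.00256). The course of Wnt5a, low in sham-treated tumour and higher again at 8.5 mM and 17 mM, was also that of Ror1 and Fzd2.

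Of 11 tested ligands and genes of WNT secretion, 2 rose and 4 fell in sham-treated tumour, 54.5% of the list against 57.2% of all genes called there. At 17 mM 4 rose and 2 fell and at 8.5 mM 3 rose and 1 fell, or 54.5% and 36.4% of the list, against 26.3% and 15.6% of all genes. Wnt2, a ligand of mesenchyme, read 6.98 in healthy bladder, 6.03 in sham-treated tumour, 7.29 at 1.7 mM, 9.05 at 8.5 mM and 8.84 at 17 mM in experiment 1, and 6.32, 4.56, 7.52 and 6.95 in experiment 2. It rose by 3.01 at 17 mM (SE 0.32, limma, adjusted p = 0.021). Wnt4, another ligand, fell by 2.56 in sham-treated tumour (SE 0.21, limma, adjusted p = 0.00445) and rose by 2.38 at 17 mM (SE 0.27, limma, adjusted p = 0.0222). Wnt10a, a ligand of the beta-catenin branch, had the opposite course, with a rise of 2.48 in sham-treated tumour (SE 0.10, limma, adjusted p = 0.0024) and -2.14 at 17 mM (SE 0.13, limma, adjusted p = 0.0159).

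Of the R-spondins, which strengthen WNT signals, and their LGR receptors, 3 of 5 tested fell in sham-treated tumour, where 28.6% of all genes fell, and 2 of 5 rose at each of the 2 higher doses, where 11.0% and 15.7% of all genes rose. Rspo1 fell by 2.98 in sham-treated tumour (SE 0.18, limma, adjusted p = 0.0032). At 17 mM it still stood at -2.96 log2 units against healthy bladder (SE 0.24, limma, adjusted p = 0.0444). It read 7.63 and 6.25 in healthy PBS bladder and 3.56 to 5.07 on all other arrays, the 7-day array at 4.38 among them. Kap, the only kidney marker above the filter, likewise read 9.61 and 9.32 in healthy PBS bladder and 5.72 to 7.53 on all other arrays. The part of kidney markers in the Rspo1 values was not tested. Lgr4, an R-spondin receptor, fell by 2.50 in sham-treated tumour (SE 0.13, limma, adjusted p = 0.00269) and rose by 1.99 at 17 mM (SE 0.17, limma, adjusted p = 0.0181).

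Of the other secreted inhibitors 4 were tested, of which 1 rose and 1 fell in sham-treated tumour (57.2% of all genes called) and 1 rose at 17 mM (26.3%). Sostdc1, which binds LRP coreceptors and BMP ligands, fell by 0.76 in sham-treated tumour (SE 0.17, limma, adjusted p = 0.0332) and rose by 2.05 at 17 mM (SE 0.22, limma, adjusted p = 0.0214) and by 1.75 at 8.5 mM (SE 0.22, limma, adjusted p = 0.0342). It read 5.00 in healthy bladder, 3.99 in sham-treated tumour, 4.61 at 1.7 mM, 5.87 at 8.5 mM and 6.17 at 17 mM, and 4.80, 4.30, 5.61 and 4.88 in experiment 2, with the 7-day array near its control. Igfbp4, an IGF-binding protein that also hinders WNT receptors, rose by 1.54 in sham-treated tumour (SE 0.09, limma, adjusted p = 0.00293). No other list gene among the secreted inhibitors was called at 17 mM or 8.5 mM.

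Inside the cell, 2 of 16 tested pathway genes rose and 5 fell in sham-treated tumour, 43.8% of the list where 57.2% of all genes were called. At 17 mM 4 rose and 1 fell, 31.2% of the list and near the 26.3% of all genes called. Tcf7l1, a TCF factor that often represses, fell by 1.52 (SE 0.10, limma, adjusted p = 0.00335) and then rose by 1.24 at 17 mM (SE 0.13, limma, adjusted p = 0.0203). Of 10 further beta-catenin feedback and target genes, 5 rose and 4 fell in sham-treated tumour, and 4 rose and 4 fell at 17 mM, with a median of 0.18. These are 9 and 8 of the 10, where 57.2% and 26.3% of all genes were called. Tnfrsf19 read 8.52 and 7.79 in healthy bladder, 5.04 and 4.29 in sham-treated tumour, 6.08, 7.88 and 8.26 at the 3 doses, and 7.50 and 8.26 on the 24 h and 7-day arrays. It rose by 3.22 at 17 mM (SE 0.12, limma, adjusted p = 0.0159). The feedback inhibitors Nkd1 and Nkd2 rose by 2.09 and 1.92 (SE 0.21 and 0.12, limma, adjusted p = 0.0198 and 0.0159). Cd44 rose by 3.12 in sham-treated tumour (SE 0.11, limma, adjusted p = 0.0024), and at 17 mM it was still 2.12 above healthy bladder (SE 0.14, limma, adjusted p = 0.04). The target genes did not move in 1 direction. None of the genes on these 6 lists was called at 1.7 mM, 24 h or 7 days, where 0.00% of all genes were called.

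**Figure D4:**
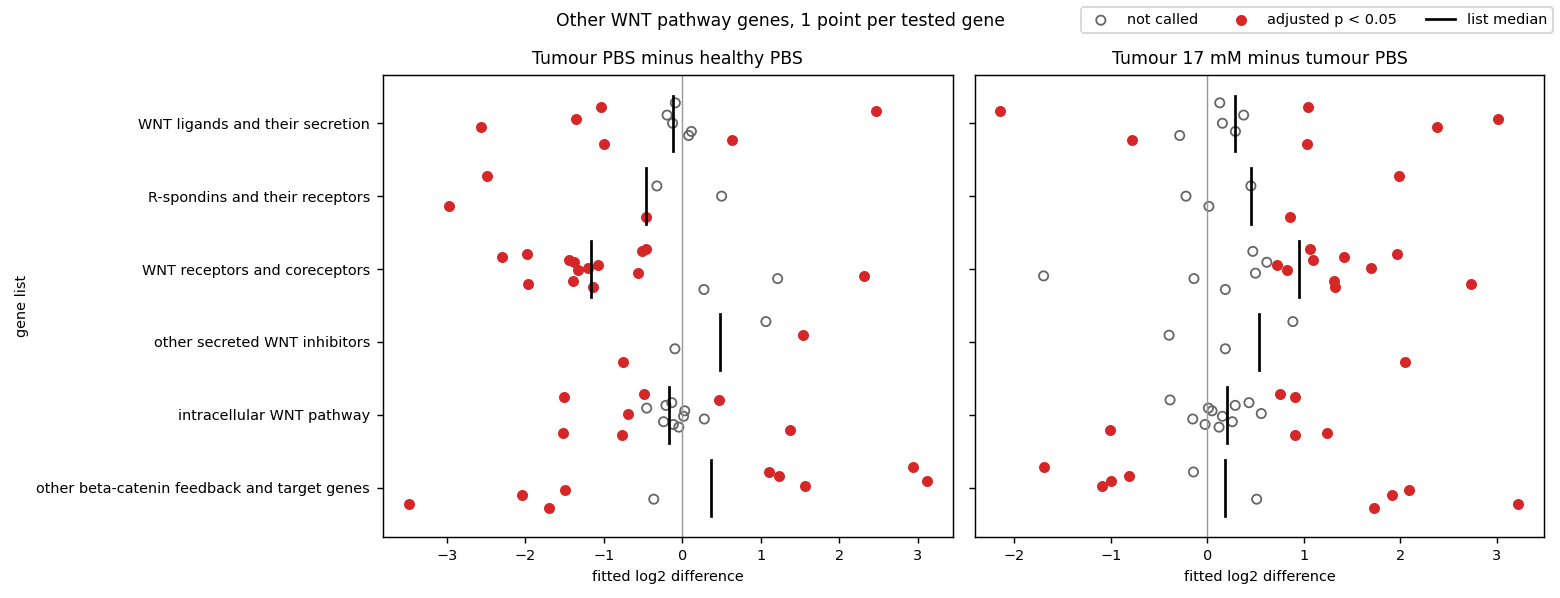
Fitted log2 difference (horizontal axis) of each tested gene of 6 WNT pathway lists (vertical axis), for sham-treated tumour minus healthy bladder on the left and 17 mM tumour minus sham-treated tumour on the right. Filled red points passed at an adjusted p below 0.05 in limma, open points did not, and black bars are list medians. Receptors lie mostly left of 0 in the first panel (median -1.17) and right of it in the second (0.95), whereas target genes spread to both sides. Both panels share the sham-treated tumour arrays.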

How the data were processed

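Whole-bladder RNA of 9 samples was measured on Affymetrix arrays. The authors deposited log2 RMA intensities, 1 value per probe set and array, per the submitters' processing notes made with Transcriptome Analysis Console 4.0.1.36; no source used here names the build behind the probe annotation. Sorted values deviated on average by at most 0.022 log2 units within an experiment and differed by 0.329 between experiments, as in experiments normalized apart.

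Of 45077 probe sets, 28898 named 1 gene, 551 named several and 15588 named none, and 40 were controls. Symbols were updated through Entrez identifiers for 28689 probe sets, and each of 17097 genes kept its probe set with the highest mean (7180 had several). The 30% of genes with the lowest means were left out, and 11969 were tested. Group means and the experiment as a block were fitted with limma 3.58.1 in R 4.3.3 over all 9 arrays, with empirical Bayes (1 residual and 2.23 prior degrees of freedom) and Benjamini-Hochberg adjustment over all tested genes, called below 0.05. Groups with 1 array were assumed to vary like the PBS groups. Over tested genes the deviations of the healthy and tumour PBS arrays of experiment 1 from their group means correlated at 0.647 (2 pairs), and the labels number the experiments, so the block was kept. The fit was tested on simulated data.

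Differences on single arrays, correlations, promoters and figures were computed in Python 3.11.15, through pandas 2.3.3 over numpy 2.4.6, and drawn with matplotlib 3.10.9. Named were the 8 genes, up to 3 called genes per list and comparison by size, the 5 genes most like Dkk2, and the check genes; the 11 genes counted over 4 arrays and the neighbours of Dkk2 were added after their values were seen, as was the comparison of 17 mM tumour with healthy bladder. The 8 genes and all lists were chosen with earlier results of these data known. Not analysed here were Kremen2, Sfrp4, Pygo1 and Tcf7 of the pathway lists. Alternatives were no block, joint quantile normalization, other filters, the mean of all probe sets, a variance trend and leaving out arrays. The number of arrays limits the precision.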

Additional observations from a re-analysis of the deposited data

Results flagged for a closer look

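In 3 cases the difference with 17 mM was unequal in tumour and in bladder labelled healthy by the test of the difference itself (limma with Benjamini-Hochberg adjustment). Of all genes, 19.1% were called in the test against the 24 h array and 3.20% in that against the 7-day array. Sham-treated tumour, the baseline of the tumour side, stood at -3.72 for Wnt5a and -1.46 for Dkk3 against healthy bladder. For Wnt5a the tumour difference exceeded that on the array labelled healthy, 24 h by 3.28 log2 units (adjusted p = 0.0264, and 0.0341 or less in all 11 tested alternatives, 1 of which leaves out an array with no weight there). For Dkk3 it exceeded the 24 h difference by 1.93 (adjusted p = 0.031, called in 6 of 11 alternatives) and the 7-day difference by 2.32 (adjusted p = 0.04999, called in 6 of 11). In the 7-day test Wnt5a and Sfrp2, not called in the fit as designed, were called in 9 of 11 alternatives each. The array labelled healthy, 24 h also carried the proliferation, leukocyte and liver markers given above, and their part in these values was not tested.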

How the results depend on the processing

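Dkk3, Sfrp2 and Wnt5a passed the test at 8.5 mM and 17 mM against sham-treated tumour in 12 of 12 tested alternatives (2 of them leave out an array with no weight there), with limma adjusted p up to 0.0331 and 0.0233. No called result changed direction. Of uncalled ones, without the block Sfrp1, Sfrp2 and Wnt5a stood at -0.11, -0.04 and -0.18 at 7 days and Sfrp1 at 0.05 in the 24 h interaction, and with joint quantile normalization Axin2 stood at -0.07 in the 7-day interaction. The number of genes called moved more. Without the experiment as a block, limma called 3172 genes between sham-treated tumour and healthy bladder (6852 with it), 1217 at 17 mM (3147; 1096 higher and 121 lower against 1875 and 1272), 945 at 8.5 mM (1872; 904 higher and 41 lower against 1315 and 557), 36 at 1.7 mM (0), 126 at 24 h (0), 15 at 7 days (0), 1193 and 823 in the interactions with 24 h and 7 days (2288 and 383), and 590 for 17 mM tumour against healthy bladder (356). With all arrays quantile-normalized together these were 3129 at 8.5 mM, 666 at 24 h, 7 at 7 days, 3579 and 2122 in the interactions and 2020 against healthy bladder. With no filter the 7-day interaction had 0 and the comparison with healthy bladder 202. With the lowest 50% left out, the mean of all probe sets or a variance trend, there were 121, 96 and 198 genes at 24 h, 835, 972 and 1058 in the 7-day interaction, and 577, 684 and 732 against healthy bladder. Leaving out 1 PBS array leaves no residual degrees of freedom under the block; without it, limma called 2230 to 2807 genes in sham-treated tumour, 850 to 1378 at 17 mM, 519 to 1125 at 8.5 mM, 7 to 212 at 1.7 mM, 76 to 153 at 24 h, 7 to 21 at 7 days, 617 to 1480 in the 24 h interaction, 407 to 1184 in the 7-day interaction, and 244 to 676 against healthy bladder. Of uncalled members, the range over fits without 1 PBS array was -0.10 to 0.28 for Axin2 in sham-treated tumour and -0.07 to 0.30 for Axin2 at 24 h, -0.32 to 0.52 for Sfrp1, -0.09 to 0.54 for Sfrp2, -0.05 to 0.32 for Axin2 and -0.47 to 0.54 for Wnt5a at 7 days, and -1.0 to 0.47 for Sfrp1 in the 24 h interaction. The cause of these shifts was not tested.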
